A study of Danio rerio with 4 samples.

Results

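The genes that carry the ionic currents of the heartbeat and move calcium in and out of its stores were examined in cryoinjured zebrafish ventricles that lack functional *cd74a* and *cd74b*. They were taken by name from the gene table: the potassium (*kcn*), sodium (*scn*), calcium (*cacn*) and pacemaker (*hcn*) channels with their auxiliary subunits, the ryanodine and inositol trisphosphate receptors (*ryr*, *itpr*), the sodium-calcium exchangers (*slc8a*), the calcium pumps of the sarcoplasmic reticulum (*atp2a*) and the sodium pump (*atp1a*, *atp1b*). The names matched 129 of 20984 genes, 1 of which, *kcnj11l*, is listed under 2 identifiers. A mean of at least 10 normalized counts over the 4 ventricles was required for a test, and 74 of the 129 genes reached it, as did 16065 genes of the whole table.

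In a cardiomyocyte, sodium channels start the action potential, calcium channels of the L-type admit the calcium that opens ryanodine receptors on the sarcoplasmic reticulum, and the released calcium drives contraction. The reticulum pump SERCA takes calcium back up, the sodium-calcium exchanger expels it from the cell, potassium channels repolarize the membrane, and the sodium pump restores the sodium and potassium gradients on which all of these depend. The zebrafish genome holds duplicate copies of many of these genes, marked by a final a or b.

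The *cd74a; cd74b* double mutant, which carries the *bns454* deletion of 5 bases in *cd74a* and the *bns456* deletion of 25 bases in *cd74b*, was compared with the wild type. There were 2 libraries of each genotype, each made from the ventricle of 1 adult fish of the AB strain aged 3 to 12 months. Each genotype had 1 female and 1 male, although which library is which is not given in the sources used here. All 4 ventricles had been cryoinjured, so no uninjured heart enters the comparison, and the interval after injury is stated as 120 hours in the study's methods and as 7 days in the deposited design text. Cd74, the invariant chain, escorts MHC class II molecules, and both mutant alleles are predicted to encode truncated proteins. The alleles were not restricted to a cell type. For a single gene, the exact permutation of 2 ventricles against 2 allows no two-sided p below 0.33, and all tests given are limma fits across the 16065 genes, with p-values adjusted over all of them by the Benjamini-Hochberg method. A gene was called when its adjusted p-value was under 0.05 and its log2 fold change at least 0.59 in size. Values are the deposited normalized counts of replicate 1 and then replicate 2 of a genotype, and fold changes are mutant over wild type on the log2(normalized count + 1) scale, with the standard error (SE) of the fit.

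The normalized totals were 4198389 and 4382529 in the mutants and 4278663 and 4123819 in the wild types. The targeted genes stood at 408 and 401 (*cd74a*) and 131 and 117 (*cd74b*) in the mutants, against 837 and 913 and against 622 and 678 in the wild types, and both were called lower. All 11 tested cardiomyocyte markers were present in every ventricle, and 1 of them, *ttn.1*, was called lower and 0 higher. In 9 of the 11 the log2 fold change was above 0, and the median was 0.12. The 2 below 0 were the titin genes, *ttn.1* at -0.67 and *ttn.2* at -0.57. The adjusted p of *ttn.2* was 0.0424, but its fold change fell short of the limit for a call. The cardiac myosin light chain gene *myl7* had 1043 and 1209 in the mutants and 970 and 1040 in the wild types. Gene lengths were not divided out, so the values compare ventricles and do not rank genes. Markers of leukocytes summed to 3038 and 3100 in the mutants and 4555 and 3894 in the wild types, and 2 of the 7 tested (*mpeg1.1* and *mpx*) were called lower. Markers of erythrocytes summed to 1731 and 1881 in the mutants and 2203 and 3546 in the wild types, with all 6 below 0 in log2 fold change (median -0.65) and 1 called lower. In the marker lists of endothelium and fibroblasts 1 gene each was called lower and, in endothelium, 1 higher, at medians of 0.01 and -0.06. In those of mural cells, thrombocytes, nerve and skeletal muscle 0 genes were called by limma. Each of these lists held 0 or 1 gene at an unadjusted p under 0.05. The list of atrium and outflow tract, *myh6* and *elnb*, had 0 called by limma as well. Both genes had an unadjusted p under 0.05 there and both mutants below both wild types, at a median of -1.78. The atrial myosin gene *myh6* was uneven, with 1250 and 154 in the mutants and 1352 and 3908 in the wild types.

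Of the 74 tested channel and pump genes, 7 were called lower in the mutants and 6 higher. That is 9.46% and 8.11%, beside 7.44% called lower and 2.7% called higher among all tested genes. In 25 of the 74 both mutants lay below both wild types (33.8%, beside 29.4% of all tested genes), in 20 both lay above (27.0%, beside 30.5%), and in 29 the genotypes overlapped. The median log2 fold change was -0.11 for the 74 genes and 0.03 for all tested genes. An unadjusted p under 0.05 was found by limma in 30 of the 74, beside 4654 of all 16065 tested genes. The genes called lower included *cacna1c*, *scn4ba*, *slc8a1a*, *itpr2*, *kcnj14* and *kcnq5a*, and those called higher were *atp1a1b*, *atp1b4*, *ryr3*, *kcne4*, *kcnc4* and *cacng8b*. No call held when any single ventricle was left out. The 13 called genes kept the sign of their log2 fold change, but that was fixed in advance, because their genotypes do not overlap.

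**Figure D1:**
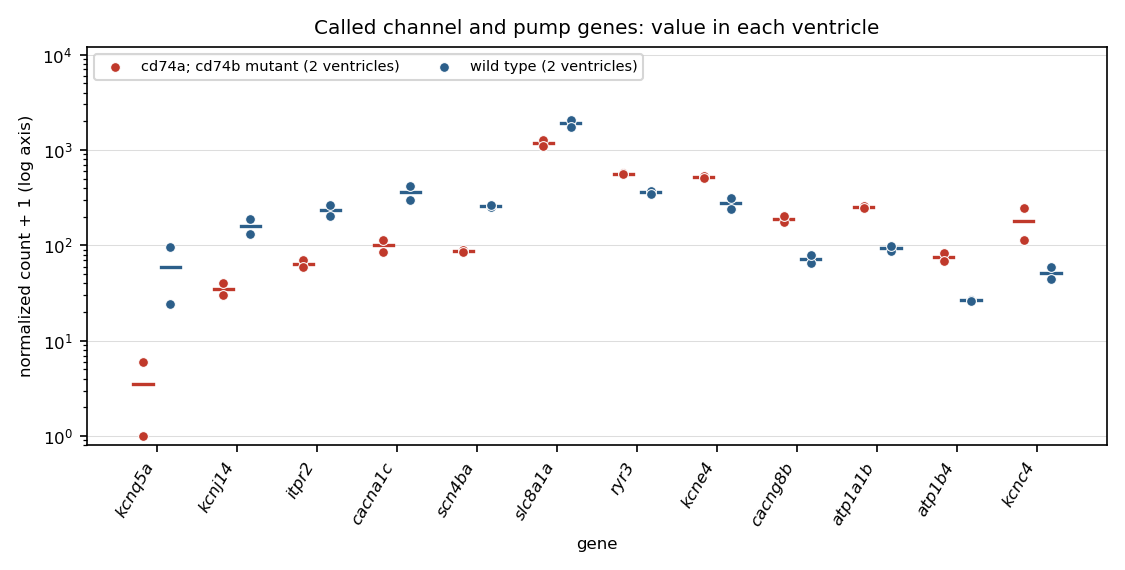
Normalized count plus 1 (log axis) of 12 of the called channel and pump genes in each ventricle, mutants in red on the left of each pair and wild types in blue on the right; short lines mark the mean of 2 ventricles. In each of the 12 genes the mutants and the wild types do not overlap, from *kcnq5a* with 5 and 0 in the mutants to *slc8a1a* with 1262 and 1101. The 12 genes were picked by calls on these same values, so their separation is not a result of its own. Among all tested genes, both mutants lay below both wild types in 29.4% and above them in 30.5%.

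**Figure D2:**
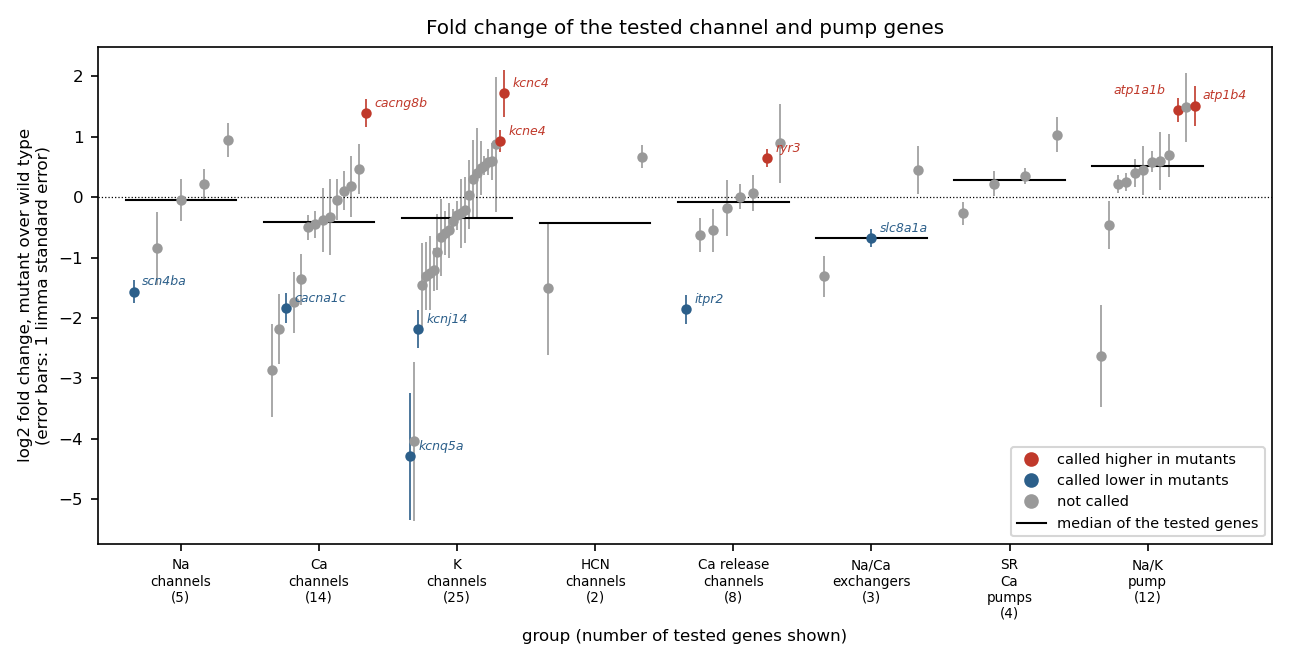
Log2 fold change (mutant over wild type, error bars 1 limma SE) of 73 tested genes, sorted by size within 8 groups, with called genes in colour and black lines for the medians of all tested genes of a group. The sodium pump group has the highest median, 0.51, and the sodium-calcium exchangers the lowest, -0.68.

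The upstroke of the action potential rests on the sodium channels, of which 5 of 10 listed genes were tested, 1 of them called lower and 0 higher. *scn4ba* encodes a beta subunit, a single-pass membrane protein that modulates the gating of the pore. It had 88 and 85 normalized counts in the mutants against 252 and 263 in the wild types, so that replicates of a genotype were nearly equal and the genotypes far apart. The log2 fold change of *scn4ba* (chromosome 15, 12466852 to 12500938 in danRer11) was -1.56 (SE 0.20, adjusted p = 0.0101), the smallest adjusted p-value of the 74 genes. Another beta subunit gene, *scn3b*, stood at 636 and 687 in the mutants and 248 and 474 in the wild types. Its log2 fold change was 0.94, without reaching the threshold (SE 0.28, adjusted p = 0.0755). The pore genes overlapped between genotypes. *scn5lab*, a zebrafish counterpart of the mammalian cardiac sodium channel, had 161 and 217 in the mutants and 279 and 133 in the wild types, and *scn4ab*, known from skeletal muscle, had 363 and 241 in the mutants and 221 and 295 in the wild types. *scn1ba* had 39 and 16 in the mutants and 28 and 75 in the wild types.

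Among the calcium channels, 14 of 29 listed genes were tested, and the pore of the L-type channel was the 1 called lower. *cacna1c* encodes the pore through which trigger calcium enters the ventricular cardiomyocyte, and zebrafish embryos without it have hearts that fail to beat in a coordinated way. It had 114 and 85 normalized counts in the mutants against 418 and 301 in the wild types, a mean of 99.5 ± 20.5 against 359.5 ± 82.7 (SD, n = 2 each). The lower wild type stood well above the higher mutant. *cacna1c* (chromosome 4, 20318127 to 20474972) thus had a log2 fold change of -1.84 (SE 0.24, adjusted p = 0.0108). The subunits that accompany the L-type pore had smaller differences that were not called. The alpha2-delta gene *cacna2d1a*, whose product brings the pore to the membrane, had 319 and 311 in the mutants and 543 and 367 in the wild types (log2 fold change -0.50, adjusted p = 0.165). The beta subunit gene *cacnb2a* had 184 and 146 in the mutants and 255 and 198 in the wild types (log2 fold change -0.45, adjusted p = 0.222). In both genes the mutants lay below both wild types.

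Further calcium channel genes had large fold changes without a call. *cacnb1* had 55 and 31 in the mutants and 151 and 77 in the wild types (log2 fold change -1.36, SE 0.42), and *cacnb4a* had 27 and 15 in the mutants and 105 and 46 in the wild types (-1.74, SE 0.51). The pores *cacna1ib* (T-type) and *cacna1eb* (R-type) were lowly counted, with 8 and 4 against 31 and 28 and with 1 and 3 against 16 and 24, mutants before wild types. The mutant means were 6.0 and 2.0 and the wild-type means 29.5 and 20.0. Both genes thus reached the minimum mean for a test only through the wild types. Their adjusted p-values were 0.0562 and 0.0582, just past the threshold, and both were called when the pseudocount was 5. The other T-type pore, *cacna1g*, had 626 and 687 in the mutants, between the wild types at 1017 and 448. The skeletal muscle L-type pore *cacna1sa* likewise had 45 and 52 in the mutants, between the wild types at 113 and 35. Of the skeletal muscle markers, 4 were tested and all 4 overlapped between genotypes: *mylpfa*, a fast muscle myosin light chain, had 62 and 30 in the mutants and 19 and 74 in the wild types. The untested ones had single values of at most 21.

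The calcium channel gene called higher was *cacng8b*, a member of the gamma family whose mammalian counterpart is best known as an auxiliary subunit of glutamate receptors in the brain. It had 175 and 201 normalized counts in the mutants against 64 and 79 in the wild types. The log2 fold change (chromosome 16, 12882381 to 12953739) was 1.39 (SE 0.23, adjusted p = 0.0171). The remaining uncalled calcium channel genes overlapped between genotypes: *cacna1aa*, a pore known from synapses, had 181 and 107 in the mutants and 105 and 160 in the wild types, *cacnb4b* had 46 and 31 in the mutants and 23 and 32 in the wild types, *cacna2d2a* had 17 and 19 in the mutants and 19 and 13 in the wild types, and *cacng6b* had 26 and 11 in the mutants and 33 and 14 in the wild types. Of 7 tested neuronal and glial markers 0 were called by limma and 0 had an unadjusted p under 0.05. Their sum was 639 and 367 in the mutants and 360 and 850 in the wild types, mostly from *syt1a* with 514 and 293 in the mutants and 246 and 480 in the wild types, and 6 of the 7 had a log2 fold change below 0 (median -1.17). The part of nerve tissue in the *cacng8b* difference was not tested.

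The release channels of the stores showed 1 gene called in each direction among 8 tested. *itpr2* encodes an inositol trisphosphate receptor, which releases calcium from the endoplasmic reticulum downstream of G protein-coupled receptors, and in mammals it is the main receptor of this family in the heart. It had 69 and 58 normalized counts in the mutants against 264 and 203 in the wild types, without overlap. *itpr2* (chromosome 18, 15937610 to 16042504) thus had a log2 fold change of -1.86 (SE 0.24, adjusted p = 0.0105). The 3 other receptors of the family, *itpr1a* (106 and 74 in the mutants, 116 and 163 in the wild types), *itpr1b* (173 and 236 in the mutants, 253 and 147 in the wild types) and *itpr3* (83 and 56 in the mutants, 131 and 77 in the wild types), were not called, and *itpr1b* and *itpr3* overlapped between genotypes.

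*ryr3* encodes a ryanodine receptor known in fish mainly from skeletal muscle. It was called higher, with 574 and 552 in the mutants against 372 and 347 in the wild types. The log2 fold change of *ryr3* (chromosome 20, 29268444 to 29420713) was 0.65 (SE 0.15, adjusted p = 0.0367). It was called in 6 of 11 alternatives that used all ventricles. The call was lost after scaling to the same upper quartile or by cyclic loess. Without a filter, without the limma trend or with the replicate block it was lost too. The cardiac receptor *ryr2b* had 2411 and 2402 in the mutants, between the wild types at 2983 and 1931, with a log2 fold change of 0.00 (SE 0.21). *ryr1b* also lay within the wild-type range, with 432 and 578 in the mutants and 1005 and 318 in the wild types. *ryr1a* had 23 and 12 in the mutants and 12 and 6 in the wild types.

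Calcium leaves the cytosol through the exchangers and SERCA. *slc8a1a* encodes the sodium-calcium exchanger Ncx1, whose loss in zebrafish embryos makes the heart fibrillate. It had 1262 and 1101 normalized counts in the mutants against 2063 and 1731 in the wild types, a mean of 1182 ± 114 against 1897 ± 235 (SD, n = 2 each). *slc8a1a* (chromosome 11, 30535943 to 30612166) thus had a log2 fold change of -0.68 (SE 0.15, adjusted p = 0.0359). The exchanger *slc8a4b*, of a type known from fish, had 45 and 28 in the mutants and 98 and 82 in the wild types (log2 fold change -1.31, SE 0.34, adjusted p = 0.0540) and was called with a pseudocount of 5 and with 2 of the 4 other scalings. *slc8a2a* had 54 and 57 in the mutants and 29 and 56 in the wild types.

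Of the SERCA genes, 4 of 5 were tested and 0 were called by limma, with 2 at an unadjusted p under 0.05. *atp2a2a*, the SERCA2 gene of the zebrafish heart, had 3079 and 3584 in the mutants and 2630 and 2584 in the wild types. Both mutants lay above both wild types, but the log2 fold change was 0.35 (SE 0.14, adjusted p = 0.150). Its duplicate *atp2a2b* overlapped between genotypes, with 935 and 909 in the mutants and 969 and 645 in the wild types. *atp2a1*, the SERCA of fast skeletal muscle, had 117 and 90 in the mutants and 56 and 44 in the wild types (log2 fold change 1.03, adjusted p = 0.0658). *atp2a3*, of non-muscle cells, had 340 and 251 in the mutants and 362 and 342 in the wild types.

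The potassium channels were the largest group, with 26 of 53 listed genes tested, 3 called lower and 2 higher. *kcnj14* encodes an inward rectifier, of the kind that holds the resting potential. It had 29 and 39 normalized counts in the mutants against 187 and 130 in the wild types. *kcnj14* (chromosome 16, 16824678 to 16839497) thus had a log2 fold change of -2.18 (SE 0.31, adjusted p = 0.0121). Related rectifiers were not called: *kcnj12a* stood at 23 and 22 in the mutants and 54 and 52 in the wild types (log2 fold change -1.20, adjusted p = 0.0731), and *kcnj2a* at 13 and 6 in the mutants and 18 and 12 in the wild types. *kcnj11*, a pore of the channel that ATP closes, had 64 and 90 in the mutants and 52 and 48 in the wild types, while the other such pore, *kcnj8*, overlapped at 29 and 10 in the mutants and 17 and 11 in the wild types.

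*kcnq5a* encodes a channel of the KCNQ family that in mammals is known from neurons and vascular smooth muscle. It had 5 and 0 normalized counts in the mutants against 23 and 95 in the wild types, near 0 in both mutants and more than 2-fold apart between the wild types. The log2 fold change was -4.29 (SE 1.05, adjusted p = 0.0444) for *kcnq5a* (chromosome 13, 27378857 to 27621246). At such low counts the size of the fold depends on the pseudocount, and the gene was not called with a pseudocount of 0.1. The KCNQ channel of the cardiac slow delayed rectifier, *kcnq1.1*, had 400 and 460 in the mutants, above 288 and 310 in the wild types, at a log2 fold change of 0.52 that was not called (SE 0.16, adjusted p = 0.0821). *kcnq5b* had 34 and 25 in the mutants and 47 and 42 in the wild types.

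The potassium channel genes called higher were *kcne4* and *kcnc4*. *kcne4* encodes a small auxiliary subunit that in mammalian cells inhibits the KCNQ1 channel. It had 537 and 503 normalized counts in the mutants against 315 and 237 in the wild types. The log2 fold change of *kcne4* (chromosome 15, 43093044 to 43100399) was 0.93 (SE 0.18, adjusted p = 0.0254). *kcnc4*, a fast voltage-gated channel, had 112 and 247 in the mutants against 58 and 43 in the wild types, with mutants more than 2-fold apart. *kcnc4* (chromosome 8, 24928632 to 24965308) thus had a log2 fold change of 1.72 (SE 0.39, adjusted p = 0.0380). It was called in 7 of 11 alternatives that used all ventricles. With voom weights, with the replicate block, without a filter or without the limma trend it was not called.

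A repolarizing and a pacemaker channel gene lay higher in both mutants without a call. *kcnh6a*, the ERG channel of the rapid delayed rectifier, whose mutation disturbs the rhythm of the zebrafish heart, had 2981 and 3675 in the mutants and 2694 and 1802 in the wild types (log2 fold change 0.59, SE 0.21, adjusted p = 0.120). *hcn2b*, a pacemaker channel gene that opens on hyperpolarization, had 1427 and 1877 in the mutants and 1179 and 899 in the wild types (log2 fold change 0.67, SE 0.19, adjusted p = 0.0695), and was called with voom weights and after scaling to the same total. The other tested pacemaker gene, *hcn4*, was barely counted, at 1 and 9 in the mutants and 5 and 26 in the wild types. Other uncalled potassium channel genes had a log2 fold change of at least 1 in size at low counts: *kcnk4a* had 8 and 17 in the mutants and 23 and 40 in the wild types, *kcng3* had 8 and 3 in the mutants and 16 and 15 in the wild types, and *kcnn4*, a calcium-activated channel of blood and epithelial cells in mammals, had 8 and 6 in the mutants and 14 and 23 in the wild types. The genes *kcnk6* (272 and 214 in the mutants, 285 and 352 in the wild types) and *kcnn1a* (64 and 71 in the mutants, 161 and 41 in the wild types) were also uncalled.

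The other tested potassium channel genes overlapped between genotypes or were lowly counted, and none was called. The *kcng* genes encode subunits that form no channel alone and modify other Kv channels: *kcng1* had 169 and 138 in the mutants and 224 and 158 in the wild types, *kcng2* had 94 and 20 in the mutants and 81 and 85 in the wild types, and *kcng4a* had 26 and 11 in the mutants and 16 and 17 in the wild types. *kcnj13*, an inward rectifier known in zebrafish from the pattern of pigment stripes, had 42 and 14 in the mutants and 3 and 47 in the wild types. The tandem-pore genes, which carry background potassium current, ranged from 11 to 38 normalized counts in *kcnk1a*, *kcnk5a* and *kcnk5b*. *kcnn3*, of the small-conductance calcium-activated channels, had 6 and 19 in the mutants and 7 and 9 in the wild types.

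Most genes of the sodium pump lay higher in the mutants. Of its 12 tested genes, 2 were called higher and 0 lower, beside 2.7% and 7.44% of all tested genes. In 10 the log2 fold change was above 0, beside 8391 of all 16065 tested genes. The median was 0.51, and 8 had both mutants above both wild types, a pattern of 30.5% of all tested genes. Summed over the group, the normalized counts were 8026 and 9257 in the mutants and 6946 and 6500 in the wild types. The largest parts of these sums came from the uncalled genes *atp1a1a.1*, *atp1a3b* and *atp1b1a*. A log2 fold change above 0 was also found in 9 of the 11 cardiomyocyte markers, at a median of 0.12. The pump works as a pair of an alpha subunit, which splits ATP, and a beta subunit, which carries it to the membrane.

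*atp1a1b* encodes an alpha subunit. It had 255 and 248 normalized counts in the mutants against 87 and 98 in the wild types, a mean of 251.5 ± 4.95 against 92.5 ± 7.78 (SD, n = 2 each). *atp1a1b* (chromosome 9, 35901554 to 35922201) thus had a log2 fold change of 1.44 (SE 0.20, adjusted p = 0.0117). *atp1a1a.1*, the alpha subunit that zebrafish embryos need to form the heart tube, had 2451 and 2918 in the mutants and 2415 and 2171 in the wild types (log2 fold change 0.22, SE 0.15, adjusted p = 0.359). The alpha subunit *atp1a3b* had 2443 and 2817 in the mutants and 2025 and 1509 in the wild types (log2 fold change 0.59, SE 0.18, adjusted p = 0.0772). Both lay higher in both mutants, without a call. *atp1a1a.1* belongs to a cluster of similar copies, and reads that aligned to several places were not counted. *atp1a2a* had 108 and 141 in the mutants and 22 and 85 in the wild types (log2 fold change 1.48, adjusted p = 0.136), and *atp1a3a* had 170 and 79 in the mutants and 206 and 124 in the wild types.

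Among the beta subunits, *atp1b4* was called higher, with 83 and 67 normalized counts in the mutants against 26 and 25 in the wild types. The log2 fold change of *atp1b4* (chromosome 14, 33458294 to 33469953) was 1.51 (SE 0.33, adjusted p = 0.0334). In placental mammals the product of this gene has lost the role of a pump subunit. *atp1b4* lies on the chromosome of *cd74a*, 30.4 Mb away. *atp1b1a* had 1545 and 1865 in the mutants and 1434 and 1410 in the wild types, *atp1b2a* 413 and 475 in the mutants and 419 and 268 in the wild types, and *atp1b3b* 453 and 567 in the mutants and 207 and 474 in the wild types, all uncalled. The alpha gene *atp1a1a.3* (20 and 30 in the mutants, 18 and 14 in the wild types) and the beta gene *atp1b3a* (42 and 31 in the mutants, 23 and 30 in the wild types) were uncalled too, each with both mutants above both wild types. *atp1b1b* went the other way, with 32 and 10 in the mutants and 48 and 282 in the wild types (log2 fold change -2.63, SE 0.84, adjusted p = 0.0886).

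**Figure D3:**
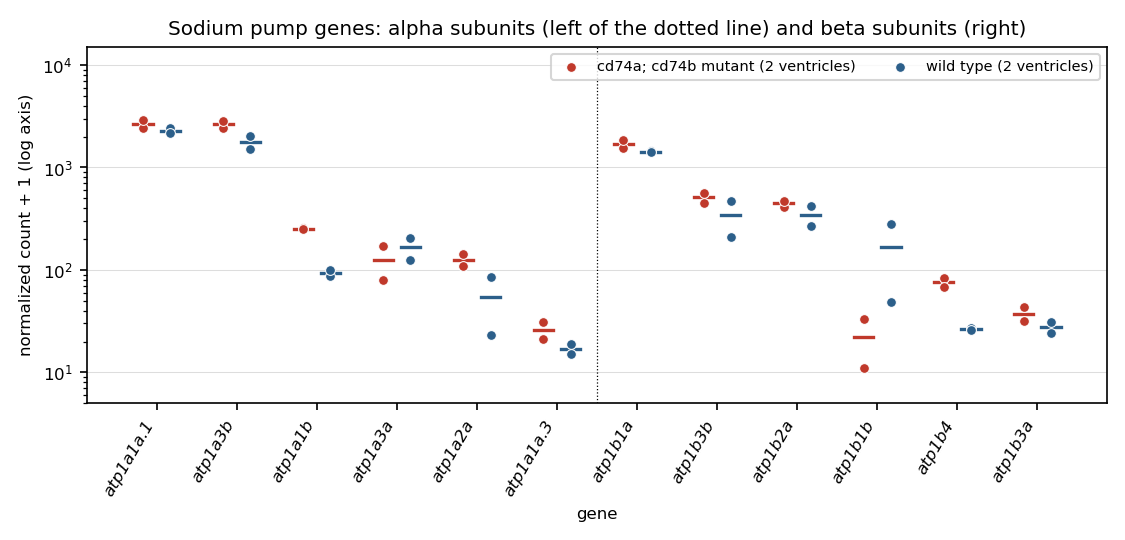
Normalized count plus 1 (log axis) of the 12 tested sodium pump genes in each ventricle, mutants in red left of wild types in blue, with lines for the means of 2 ventricles; alpha subunits stand left of the dotted line and beta subunits right. The called genes *atp1a1b* and *atp1b4* are separated by genotype, while *atp1b1b* has 1 high wild type at 282.

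Replicates differed more in the channel and pump genes than in the whole table. The wild types were more than 2-fold apart in 15 of the 74 genes (20.3%), beside 8.90% of all tested genes, and the mutants in 17 (23.0%), beside 7.66%. The median pooled SD on the log2 scale was 0.36 for the 74 genes and 0.21 for all tested genes. The median mean was 87.9 normalized counts for the 74 genes and 153 for all tested genes, and 40 of the 74 had a mean under 100. In some of the widest gaps wild type replicate 2 was the highest, as for the atrial myosin *myh6*. That gene had 1250 and 154 in the mutants and 1352 and 3908 in the wild types. In others wild type replicate 1 was the higher wild type, as in *ryr1b* (1005 and 318), *cacna1g* (1017 and 448) and *kcnn1a* (161 and 41). *kcnj5*, which in mammals encodes a subunit of the acetylcholine-gated potassium channel of the atrium, had 6 and 1 in the mutants and 13 and 271 in the wild types (log2 fold change -4.04, SE 1.32, adjusted p = 0.0933). With a mutant mean of 3.5, *kcnj5* reached the minimum mean for a test only through the wild types. *myh6*, *kcnj5*, *atp1b1b* and *kcnq5a* shared 1 order of ventricles. From highest to lowest it was wild type replicate 2, wild type replicate 1, mutant replicate 1 and mutant replicate 2. In all, 8 of the 74 genes had that order (10.8%, beside 8.78% of all tested genes). The called gene *scn4ba* was among them, but its replicates of a genotype were nearly equal. It had 88 and 85 in the mutants and 252 and 263 in the wild types. Without wild type replicate 2, the log2 fold change was -1.90 for *kcnj5*, -1.36 for *atp1b1b*, -3.29 for *kcnq5a* and -1.53 for *scn4ba*. The glial gene *mpz* and the neuronal gene *snap25a* were also highest in that wild type, at 103 and 63. The most counted of the nerve markers, *syt1a*, was instead highest in mutant replicate 1. The part of atrial or nerve tissue in these values was not tested.

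**Figure D4:**
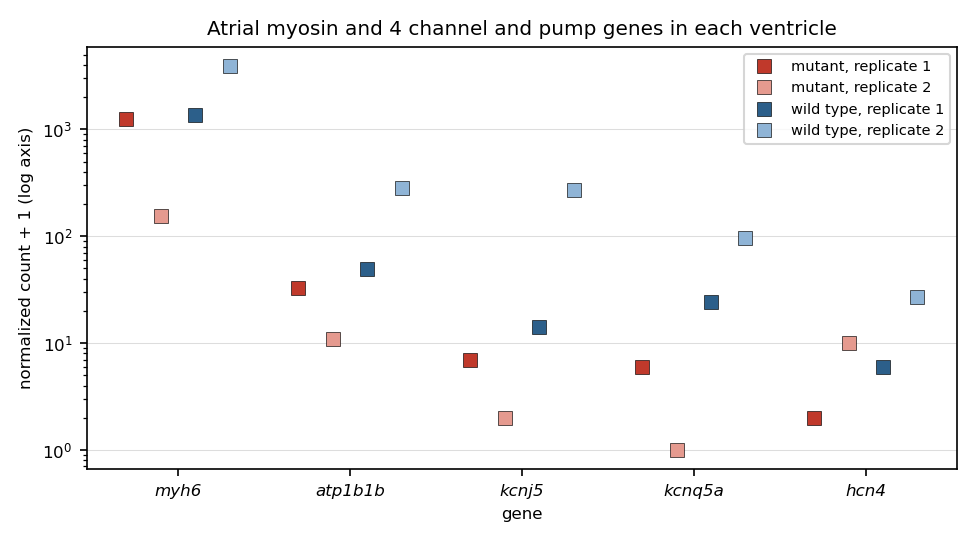
Normalized count plus 1 (log axis) of the atrial myosin gene *myh6* and of 4 channel and pump genes in each of the 4 ventricles, 1 square per ventricle, mutants in red shades left of wild types in blue shades. Wild type replicate 2 is the highest in all 5 genes, at 3908 for *myh6* and 271 for *kcnj5*, and mutant replicate 2 is the lowest in all but *hcn4*. The 4 genes were picked with their values known, so this shared pattern is not a result of its own. The full order of *myh6* was found in 10.8% of the 74 tested genes, beside 8.78% of all tested genes.

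The partners of these channels were examined in 5 lists, none of which was tested as a set. Among all tested genes 7.44% were called lower and 2.7% higher. Among 25 tested genes of the sarcoplasmic reticulum store, 1 was called lower and 1 higher. *jph1a*, a junctophilin that ties the reticulum to the surface membrane, had 133 and 84 in the mutants against 435 and 325 in the wild types (log2 fold change -1.82). *casq1b*, a calsequestrin that binds calcium inside the store, had 714 and 864 in the mutants against 417 and 433 in the wild types (0.88). Among 16 genes of calcium extrusion and mitochondrial uptake, *letm1*, of the inner mitochondrial membrane, was called lower, with 119 and 82 in the mutants against 354 and 297 in the wild types. *micu3b*, a regulator of the mitochondrial uniporter, was called higher, with 119 and 134 in the mutants against 45 and 67 in the wild types.

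Among 24 accessory genes, 1 of the rows named *ank3b*, an ankyrin that anchors channels, was called lower, with 74 and 25 in the mutants against 349 and 186 in the wild types, while the other row of that name was not called. *dpp6b*, whose mammalian counterpart is a subunit of the transient outward potassium channel, was called higher, with 248 and 304 in the mutants against 147 and 165 in the wild types. The 29 tested genes of calmodulin kinase and beta-adrenergic signaling, which tunes the L-type channel and SERCA, held 3 called lower and 2 called higher. *pde3a*, which breaks down cyclic AMP, had 70 and 47 in the mutants against 422 and 270 in the wild types (log2 fold change -2.54). The protein kinase A subunits *prkacaa* (109 and 65 in the mutants, 300 and 246 in the wild types) and *prkar1ab* (33 and 20 in the mutants, 119 and 120 in the wild types) were called lower too. The beta-adrenergic receptor gene *adrb2b* had 775 and 908 in the mutants against 180 and 418 in the wild types (log2 fold change 1.61), and the kinase gene *camk2d2* had 690 and 812 in the mutants against 431 and 405 in the wild types, both called higher. Of 8 tested gap junction genes, 0 were called by limma and 3 had an unadjusted p under 0.05. The medians of these lists lay between -0.27 and 0.34 on the log2 scale, beside 0.03 for all tested genes.

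**Figure D5:**
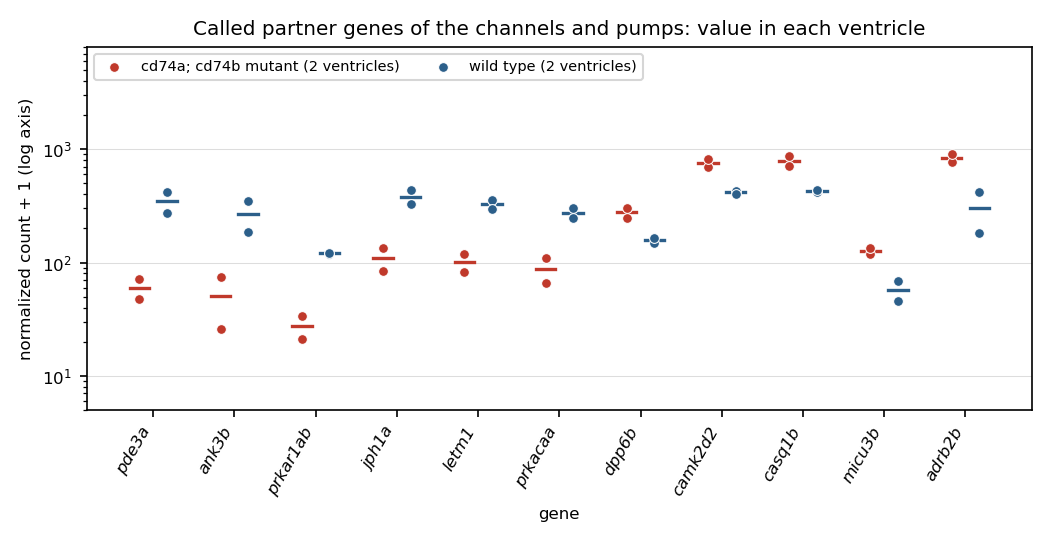
Normalized count plus 1 (log axis) of the 11 called partner genes in each ventricle, mutants in red left of wild types in blue, with lines for the means of 2 ventricles. The 6 genes on the left were called lower in the mutants and the 5 on the right higher, led by *adrb2b* with 775 and 908 in the mutants.

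The genes called lower spanned longer stretches of the genome than those called higher, with a median of 76.4 kb against 28.7 kb among the channel and pump genes and 56.0 kb for those not called. The same order held among all tested genes, at 34.3 kb for those called lower, 18.5 kb for those called higher and 16.2 kb for those not called, although there the uncalled genes were the shortest. The part of gene length in the calls was not tested. In whole ventricles, fewer cells of a type and less RNA per cell cannot be told apart.

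The 55 channel and pump genes under the minimum had means of at most 8.75, 43 of them under 5, and no single value above 20. The genes just inside were *hcn4* and *kcnn3*, both with a mean of 10.25, and those just outside were *scn1lab* and *cacna1sb*, both with 8.75. The 55 include 6 of 11 tandem-pore potassium channel genes and 6 of 11 Kv genes.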

How the data were processed

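Single cryoinjured ventricles were sequenced by the authors with a stranded mRNA kit. Trimming used Trimmomatic 0.39, alignment to danRer11 (Ensembl release 104) used STAR 2.7.9a, and counting used featureCounts 2.0.2, which left out multi-mapped reads and reads shared between genes. Removal of duplicate reads is not given in the sources used here. No normalized count of the table was above 6864, and *myl7* ranked 498 by mean, behind *kcnh6a* at 23. Whether the values of highly counted genes were held down was not tested. What the authors deposited is a score per gene: a count over the library's DESeq2 1.30.0 size factor, rounded to a whole number. From the rounding, totals of 4477162 and 4062604 reads were estimated for the mutants and of 4490885 and 4016600 for the wild types.

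The values were tested with limma 3.58.1 in R 4.3.3 (linear model, empirical Bayes with a mean-variance trend) on log2(normalized count + 1), without a block, because replicate numbers belong to different animals. Values of 2 ventricles limit the precision, and p-values rest on the spread between these ventricles only. For each gene that spread is moderated toward that of genes with a similar mean (5.33 prior degrees of freedom). The fit was checked on simulated data. Pseudocounts, filters, scalings, weights, a replicate block and single left-out ventricles were tried as alternatives.

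Named genes are the called channel and pump genes (1 of them is not reported here), the 2 with the highest mean in each class, textbook genes of the heartbeat, uncalled genes with a log2 fold change of at least 1 in size, and the called genes of the partner lists. The genes, lists and alternatives were chosen with earlier results of these data known. The shared library order of *myh6* was examined after its values were seen. Coordinates are those of the deposited table.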

Additional observations from a re-analysis of the deposited data

How the results depend on the processing

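Without a filter on low values, the 7 genes called lower and 6 called higher became 0 and 0. In that limma fit 0 of all 20984 genes were called. An unadjusted p under 0.05 was found there in 30 of the 129 channel and pump genes, beside 5015 of all 20984 genes. The smallest adjusted p among the 129 was 0.0545. The calls became 5 lower and 2 higher when limma had no trend. That fit lost *cacna1c*, *cacng8b*, *kcnc4*, *kcne4*, *kcnq5a*, *ryr3* and *slc8a1a*, and *kcnj12a* was newly called lower. Leaving out each ventricle in turn gave between 0 and 0 called lower and between 0 and 0 called higher. These fits have 1 residual degree of freedom and the lone ventricle is assumed to vary like the others, and their smallest adjusted p was 0.123 to 0.261. The replicate block, which takes the replicate number as a term, left 4 called lower and 3 higher, and *atp1b4*, *kcnc4*, *kcnq5a*, *ryr3* and *slc8a1a* were among the calls lost. The deviations of same-numbered ventricles correlated at -0.066 across genes. No label pairs these ventricles, and whether they share a sex is not given in the sources used here. Under the other pseudocounts, filters, weights, scalings and fold limits, 5 to 10 genes were called lower and 4 to 7 higher. Of 193 values of the 13 called genes under the alternatives, 106 stayed called. *atp1a1b*, *itpr2*, *kcnj14* and *scn4ba* were each called in 10 of 11 alternatives that used all ventricles, and *kcnq5a* in 4 of 10. Normalized counts under 10 in a genotype, as for *kcnq5a*, carry little depth behind a fold change. The minimum mean was taken over both genotypes, so such a gene was tested only because of its counts in the other genotype.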
